A study of Mus musculus with 8 samples.

Results

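Inhibitory neurons cluster 5 is the largest group of GABAergic nuclei in a single nucleus (sn)RNAseq survey of the adult mouse hippocampus. Its members are the nuclei to which the deposited annotation gives that cluster name, 2409 of 29425 nuclei, or 8.19%. They came from 2 mutant and 2 control mice, with 659 and 974 nuclei in the mutant samples and 381 and 395 in the control samples. Mutant mice were Gfap-Cre;Wlsfl/- and control mice Gfap-Cre;Wlsfl/+, all males of about 12 weeks, so that controls also carried Gfap-Cre and 1 floxed allele of Wls, and both hippocampi of a single mouse made 1 sample. Gfap-Cre acts in a subset of neural progenitors, and Wls codes for the carrier protein that Wnt ligands need to leave the cell. Mutants carried a floxed and a deleted allele of Wls. Bulk RNAseq of hippocampi, 2 samples per genotype, gave another readout. By the study's methods, each bulk sample also took both hippocampi of a single male mouse, so that 1 mouse would not serve both assays. Some sample codes recur in both assays, and the labels do not say what the codes stand for. Nothing in the labels says more about how the samples of a genotype are related, and p-values measure the spread between these samples.

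GABAergic interneurons make the transmitter GABA with the enzymes encoded by Gad1 and Gad2 and load it into synaptic vesicles with the transporter encoded by Slc32a1. Those of the hippocampus arise in the ganglionic eminences of the ventral forebrain. Cells of the medial eminence (MGE) express Lhx6 and give rise to parvalbumin and somatostatin neurons, and cells of the caudal eminence (CGE) express Adarb2 and include the Vip and Cck neurons.

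The labelled identity was checked against Gad1, Gad2 and Slc32a1. Of the nuclei of cluster 5, 53.4% and 70.1% in the mutant samples and 73.2% and 80.8% in the control samples held a unique molecular identifier (UMI, 1 counted transcript) of Gad1. In CA1 pyramidal nuclei, which should lack Gad1, the shares were 3.3% and 6.57% in the mutant samples and 4.97% and 8.04% in the control samples. Median depth was 4155, 7656, 7465 and 10925 UMIs in cluster 5 and 5270, 9098, 8215 and 12164 UMIs in CA1, in the order mutant replicates 1 and 2 and control replicates 1 and 2. After each nucleus was thinned to 1500 UMIs, the Gad1 shares in cluster 5 were 24.0%, 25.3%, 30.4% and 28.4%, against 0.85% to 1.31% in CA1. Slc17a7, the vesicular glutamate transporter gene of pyramidal cells, was found in 10.3% to 21.8% of cluster 5 nuclei and 70.0% to 96.9% of CA1 nuclei, and after thinning in 2.1% to 5.85% and 30.4% to 37.9%.

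Mutant replicate 1 stood apart in depth and, as given below, in subcluster shares. It had the lowest median UMI count, and 78.8% of its cluster 5 nuclei held a UMI of Gad1 or Gad2 against 91.3% to 95.7% in the other samples. Libraries shared 8 to 21 cell barcodes in each pair. Summed over the cluster, the samples held 2951564 to 8505390 UMIs.

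Genes of at least 50 CPM in cluster 5 (CPM is the UMI count scaled to a common total, so that samples and clusters of unequal depth compare) were ordered by their ratio to the highest level in any other deposited cluster. These levels helped to form the cluster and are a description without a test. Crhbp, which codes for a binding protein of corticotropin-releasing hormone, had the highest ratio among them, 9.04, at 57.1 CPM over the pooled samples. The peptide genes Sst and Vip followed with ratios of 6.46 and 6.09, at 371 and 125 CPM. Col19a1, a collagen gene, came next at 768 CPM with a ratio of 3.91. Kcnc2, a potassium channel gene of fast-spiking neurons, reached 1642 CPM with a ratio of 2.82, and the cannabinoid receptor gene Cnr1 reached 449 CPM with a ratio of 2.08. Gad1 was lower in cluster 5 than in the other GABAergic clusters compared, at 208 CPM against 478 in cluster 12, with 559 nuclei, and 567 in cluster 18, with 174 nuclei.

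Cluster 5 held both eminence lineages. Its nuclei were divided into 11 subclusters, and a subcluster was called MGE-like or CGE-like where the summed level of that lineage's 5 markers was over 2 times that of the other, a rule set after the data were seen. Subclusters 1, 2, 5 and 6 were MGE-like, with 52.1 to 61.6 CPM of Lhx6. Sst peaked at 1781 CPM in subcluster 5 and Pvalb, the parvalbumin gene, at 114 CPM in subcluster 6. Subclusters 3, 4, 7, 9, 10 and 11 were CGE-like, with 5946 to 17423 CPM of Adarb2. Among these, Vip peaked at 1455 CPM in subcluster 3, and Cck, with 904 CPM, and Cnr1, with 1849 CPM, peaked in subcluster 7. Reln, an extracellular matrix gene, and Ndnf, a neurotrophic factor gene, peaked in subcluster 10 at 1728 and 384 CPM. Subcluster 8, with 179 nuclei, met neither rule and stays unnamed. It had the lowest Gad1 level, 90.5 CPM, the highest median depth, 13328 UMIs, and Sv2b and Hs3st4 among its leading genes.

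**Figure D1:**
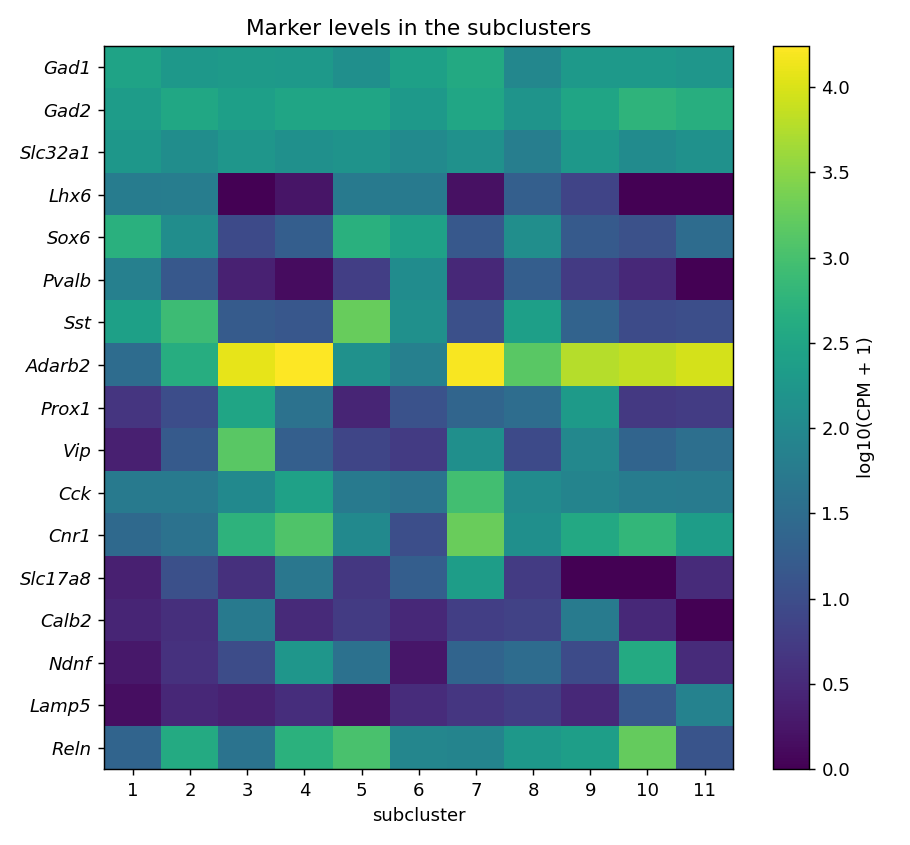
Levels of interneuron markers, as log10(CPM + 1) pooled over the 4 samples, in the 11 subclusters of cluster 5. Lhx6 and Adarb2 mark different columns, with Sst highest in subcluster 5, Vip in subcluster 3 and Cck in subcluster 7.

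MGE-like nuclei made up 63.0% and 49.4% of the cluster in the mutant samples and 48.3% and 43.0% in the control samples. CGE-like nuclei made up 32.6% and 41.7% in the mutant samples and 44.6% and 47.8% in the control samples. The genotypes did not overlap, but mutant replicate 2, at 49.4%, lay close to control replicate 1, at 48.3%. Mutant replicate 1 differed most in subclusters 1 and 5. Subcluster 1 held 24.9% of its nuclei against 9.87% to 13.6% elsewhere, and subcluster 5 held 17.1% against 8.61% to 10.8% elsewhere. These shares are given without a test.

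**Figure D2:**
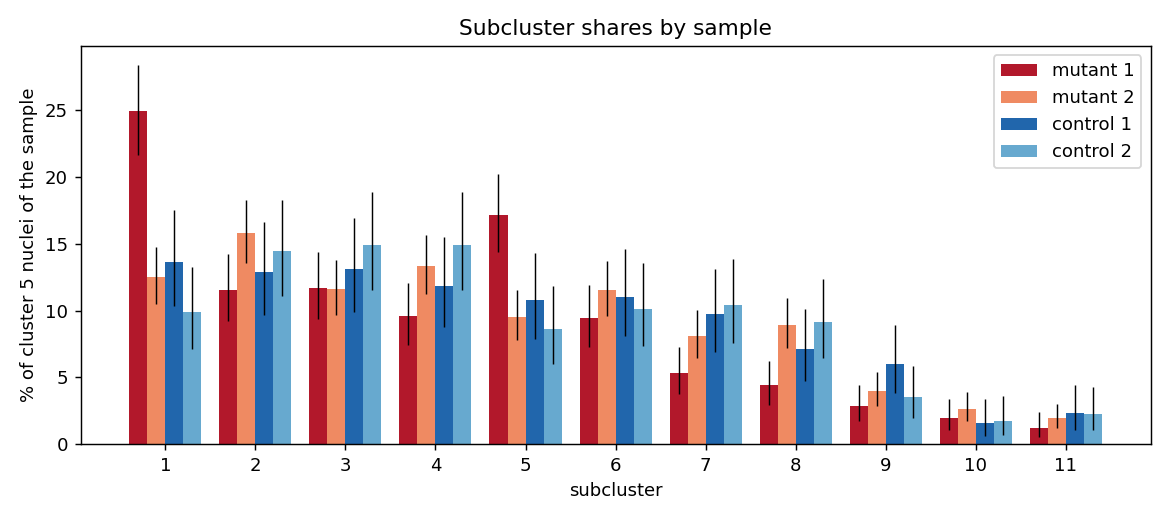
Share of each sample's cluster 5 nuclei in each subcluster, with exact 95% binomial intervals that cover counting error only. Mutant replicate 1 is higher than the other samples in subclusters 1 and 5.

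The first comparison between genotypes asked whether cluster 5 took a different share of the nuclei. It made up 12.4% (exact 95% binomial interval 11.5 to 13.3) and 9.31% (8.76 to 9.88) of all nuclei in the mutant samples, and 5.89% (5.33 to 6.49) and 5.49% (4.98 to 6.04) in the control samples. Both mutant samples were above both controls, and the log2 fold change was 0.93 ± 0.49 (SE, n = 2 per genotype). In edgeR's quasi-likelihood test the difference did not pass (adjusted p = 0.436 over 21 clusters). Granule cells, which are part of this total, made up 1.70% and 4.43% of nuclei in the mutant samples and 36.1% and 27.9% in the control samples. Without them the shares were 12.6% and 9.74% in the mutant samples against 9.22% and 7.62% in the control samples, and the log2 fold change was 0.41 (adjusted p = 0.816). Within the GABAergic clusters 5, 12 and 18, cluster 5 took 80.4% and 74.6% in the mutant samples and 78.6% and 74.2% in the control samples.

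**Figure D3:**
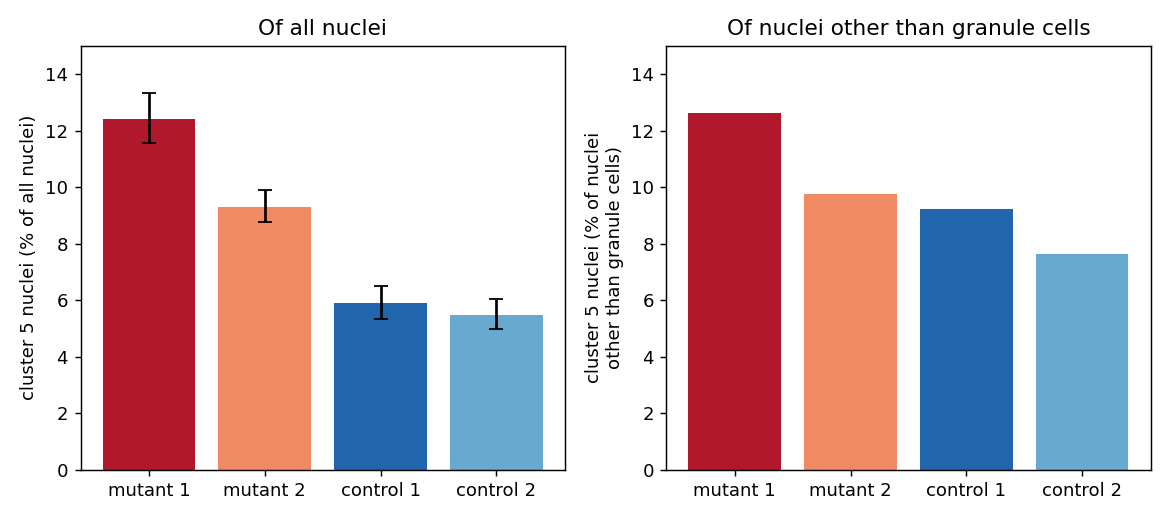
Share of nuclei in cluster 5, of all nuclei (left, with exact 95% binomial intervals) and of nuclei other than granule cells (right). The control values rise from below 6% to between 7.62% and 9.22% when granule cells are left out, next to 9.74% and 12.6% in the mutant samples.

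Wls, the targeted gene, was lower in cluster 5 of both mutant mice. Its level, in CPM after TMM scaling, was 19.2 and 25.8 in the mutant samples and 59.3 and 64.6 in the control samples, and the groups did not overlap. The log2 fold change was -1.43 ± 0.20 (SE), which did not pass in edgeR's test over 14024 genes (adjusted p = 0.0917) and did pass in DESeq2 (adjusted p = 0.00037). In bulk RNAseq, Wls was at 3.67 and 6.86 CPM in the mutant samples and 13.2 and 13.0 CPM in the control samples (edgeR adjusted p = 0.117). Which part of Wls (chromosome 3, 159839672 to 159938664, plus strand, mm10) the floxed allele removes was not analysed here, so transcripts counted from the rest of the gene may remain. The level in mutant CGE-like nuclei was 39.4 and 45.1 CPM against 94.8 and 87.7 CPM in controls, and in MGE-like nuclei 9.64 and 16.4 CPM against 35.7 and 49.4 CPM.

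The genotype difference in Wls was compared with that in the other GABAergic clusters. In cluster 12, Wls was at 15.1 and 11.1 CPM in the mutant samples and 84.1 and 82.3 CPM in the control samples, scaled jointly with cluster 5. The log2 fold change was smaller in size in cluster 5 by 1.46 ± 0.32 (SE, edgeR interaction term, adjusted p = 0.00246). That fit gave every gene the same prior spread. In limma over the differences within each of the 4 mice, an alternative chosen after the data were seen, the value was 1.20 and did not pass (adjusted p = 0.149), and without mutant replicate 2 it was 0.79 in edgeR (adjusted p = 0.863). Without control replicate 2 it was 1.52 and did not pass either (adjusted p = 0.0753). In cluster 18, Wls rested on 0 and 1 UMIs in the mutant samples and 5 and 9 UMIs in the control samples. The edgeR test called 31 genes, 0.23% of 13450, between clusters 5 and 12, against 17 in limma, and 4 genes, 0.0315% of 12690, between clusters 5 and 18, against 0 in limma, where 413 had an unadjusted p below 0.05 and a fold change above 2.

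**Figure D4:**
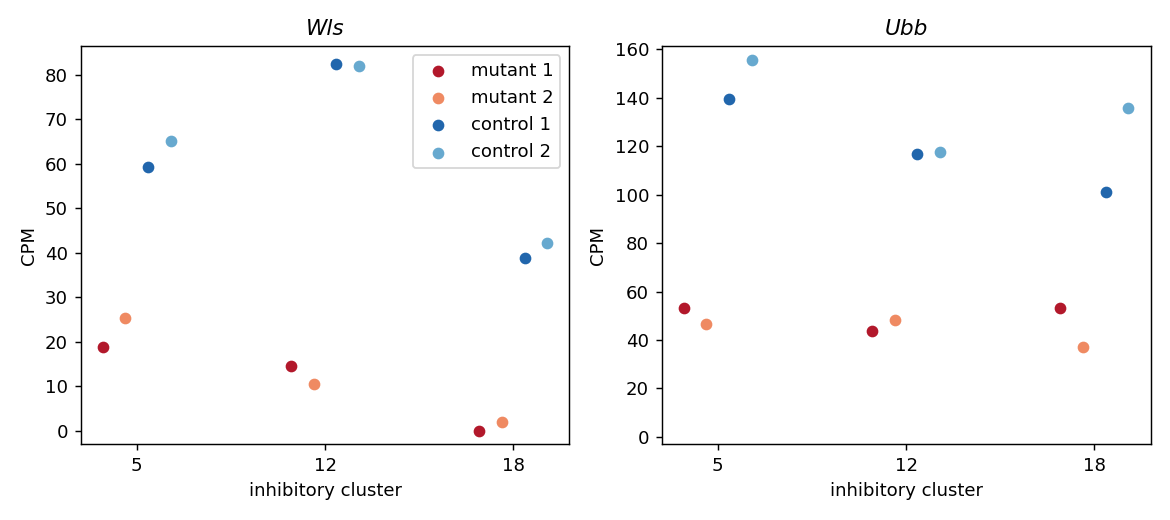
Levels of Wls (left) and Ubb (right) in CPM of each cluster's UMIs, in the GABAergic clusters 5, 12 and 18, 1 point per sample. All mutant points lie below all control points of their cluster for both genes.

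Across all genes, Ubb, a polyubiquitin gene on chromosome 11 (62551171 to 62553213, plus strand), was the single gene called in cluster 5. Its level was 53.8 and 47.4 CPM in the mutant samples and 139 and 154 CPM in the control samples. The fall was -1.54 ± 0.16 on the log2 scale (SE, edgeR adjusted p = 0.0334). At a fold change above 2 and FDR below 0.05, edgeR called 1 gene lower, 0.00713% of 14024, and 0 higher, or 0%. At an unadjusted p below 0.05 and the same fold change, 98 genes were lower, 0.699%, and 145 higher, 1.03%. DESeq2 called 17 genes lower, 0.235% of the 7227 it adjusted, and 1 higher, 0.0138%. The Ubb call was lost with nuclei thinned to 1500 UMIs (adjusted p = 0.077), without possible doublets (0.0719) and without subcluster 8 (0.052), with log2 fold changes of -1.50 to -1.57.

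The difference in Ubb was not particular to cluster 5. Both mutant samples were below both control samples in 18 of the 18 deposited clusters with at least 10 nuclei in every sample, all from the same 4 libraries, and in 10 of 11 subclusters of cluster 5. The genotype effect in cluster 5 differed from that in cluster 12 by -0.31 ± 0.21 (SE, edgeR adjusted p = 0.966). In bulk RNAseq, Ubb was at 928 and 929 CPM in the mutant samples and 945 and 676 CPM in the control samples, and the groups overlapped.

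The other genes of lowest p with a fold change above 2 did not pass in edgeR (adjusted p = 0.0917 for those that were lower). In DESeq2 the 8 of these 9 that received an adjusted p passed, and Igfbpl1 received none. Alkal2, for a ligand of receptor tyrosine kinases, was at 29.2 and 31.0 CPM in the mutant samples and 61.7 and 78.2 CPM in the control samples. Cxcl14, a chemokine gene, was at 45.9 and 43.7 CPM against 87.8 and 94.6 CPM. P4ha1, for a subunit of collagen prolyl hydroxylase, was at 38.9 and 39.3 CPM against 96.9 and 75.9 CPM. For all of these the genotypes did not overlap, but the genes were chosen by low p in this same comparison. Of all genes tested, 21.5% were lower without overlap. Hspe1, the mitochondrial co-chaperonin, was at 16.4 and 19.3 CPM in the mutant samples and 45.4 and 42.8 CPM in the control samples. Hsph1, a heat shock protein of the Hsp110 family, was at 23.7 and 27.5 CPM against 61.0 and 55.1 CPM. Ahsa1, an activator of Hsp90, was at 24.6 and 32.9 CPM against 62.4 and 74.4 CPM. These genes, chosen in the same way, did not overlap between genotypes either. Of 18 clusters, both mutant samples were lower in 17 for Hsph1 and for Ahsa1, in 14 for P4ha1, in 11 for Hspe1, which was higher in 1, in 7 for Cxcl14 and in 4 for Alkal2, which was higher in 1. For Hsph1 and Ahsa1, the log2 fold changes in bulk RNAseq were 0.02 and 0.10.

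The promoters of Hspe1 and Hsph1 are shown because, of the 10 genes of lowest p among those lower in mutants, they were the ones whose windows matched the core of the heat shock element, which heat shock factors bind. They were chosen after the values were seen. The windows run from 250 bases before to 50 after the start of the gene (RefSeq, GRCm38.p6), with matches to TTCNNGAA or GAANNTTC in capitals; both motifs read the same on either strand, and matches may overlap. The Hspe1 window is on chromosome 1, 55087898 to 55088197, plus strand, and the Hsph1 window on chromosome 5, 149636287 to 149636586, minus strand.
Hspe1: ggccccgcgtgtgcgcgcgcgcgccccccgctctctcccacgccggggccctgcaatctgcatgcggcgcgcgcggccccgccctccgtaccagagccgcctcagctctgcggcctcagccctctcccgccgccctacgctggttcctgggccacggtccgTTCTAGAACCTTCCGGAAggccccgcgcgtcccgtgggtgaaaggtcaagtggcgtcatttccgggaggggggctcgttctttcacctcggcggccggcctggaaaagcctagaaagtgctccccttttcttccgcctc
Hsph1: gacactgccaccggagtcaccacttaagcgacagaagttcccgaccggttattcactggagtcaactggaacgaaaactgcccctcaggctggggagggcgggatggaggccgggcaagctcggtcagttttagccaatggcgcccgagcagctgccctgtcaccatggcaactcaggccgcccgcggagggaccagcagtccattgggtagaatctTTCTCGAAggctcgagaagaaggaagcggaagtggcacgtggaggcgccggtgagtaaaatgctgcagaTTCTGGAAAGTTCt
Each window held 2 matches to TTCNNGAA and 1 to GAANNTTC. Of 32851 promoter windows, 15.1% held either motif, and the windows of Ubb, Ahsa1, Wls, Cck, Alkal2, Cxcl14 and P4ha1 held 0. Igfbpl1 had no entry.

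Cck, the cholecystokinin gene, was at 109 and 108 CPM in the mutant samples and 216 and 325 CPM in the control samples, a log2 fold change of -1.32 ± 0.20 (SE) that did not pass (edgeR adjusted p = 0.0917). Within CGE-like nuclei, a grouping made after the data were seen, it was lower in mutants, at 265 and 213 CPM against 431 and 626 CPM, a log2 fold change of -1.17 ± 0.18 (SE, edgeR adjusted p = 0.0248). Cnr1, which Cck neurons express at high level, was at 931 and 973 CPM against 1274 and 1302 CPM in those nuclei (-0.44 on the log2 scale, adjusted p = 0.175). Cck was lower in both mutant samples in 15 of 18 clusters, and in CA1 nuclei it was at 140 and 117 CPM against 208 and 315 CPM. The part of CA1 RNA in the cluster 5 values was not tested. Bulk levels are shares of whole-tissue RNA, and the part of the lower granule cell share of the mutants in them was not tested. In bulk RNAseq both genes were higher in mutants without overlap. There, Cck was at 190 and 170 CPM in the mutant samples and 157 and 150 CPM in the control samples (edgeR adjusted p = 0.185). Cnr1 was at 332 and 323 CPM against 263 and 275 CPM in bulk (edgeR adjusted p = 0.09).

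**Figure D5:**
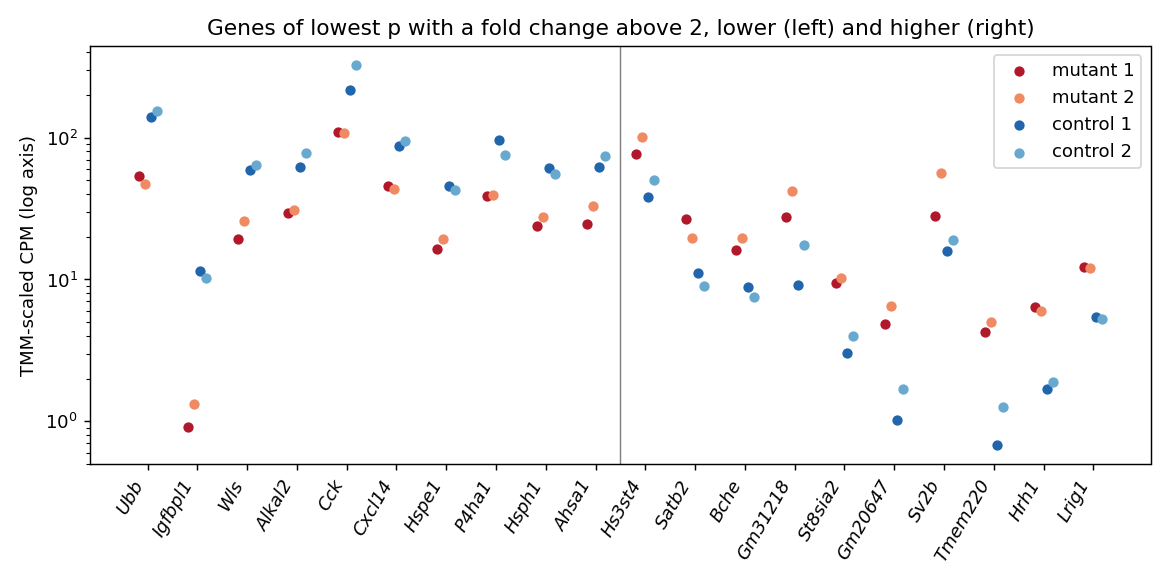
TMM-scaled CPM in cluster 5 (log axis), 1 point per sample, of the 10 genes of lowest p with a fold change above 2 in each direction. The mutant and control points do not overlap for any of the 20 genes, and Ubb alone passed the thresholds. The genes were chosen by p in this same comparison, so the lack of overlap is no separate evidence.

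Neuropeptide genes as a list were lower in the mutant samples without any member passing. Of the 10 tested, 7 were below both controls in both mutant samples and 0 above, where 21.5% of all genes were lower and 21.6% higher without overlap. Their median log2 fold change was -0.80, against 0.01 over all genes tested. Npy, for neuropeptide Y, was at 84.2 and 41.9 CPM in the mutant samples and 88.1 and 126 CPM in the control samples, and Cort, for cortistatin, at 17.9 and 19.1 CPM against 56.3 and 33.5 CPM. Sst itself overlapped, at 421 and 301 CPM against 367 and 473 CPM. The part of the lineage shares in these levels was not tested. In bulk RNAseq the list went the other way, with 7 of 11 higher and 2 lower without overlap. There, 25.8% of all genes were higher and 25.4% lower without overlap. The median log2 fold change of the list in bulk was 0.30, and 1 member, Pdyn, was called, lower in mutants.

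Of the other peptide genes, Tac1, for the tachykinin substance P, was at 26.5 and 22.9 CPM in the mutant samples and 33.6 and 38.6 CPM in the control samples. Pnoc, for prepronociceptin, was at 31.3 and 28.1 CPM against 40.7 and 56.4 CPM, and Vip overlapped at 126 and 66.8 CPM against 119 and 235 CPM. None of these passed (edgeR adjusted p = 0.367, 0.318 and 0.393).

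Of the 10 genes shared by interneurons, 3 were higher and 4 lower without overlap, where 21.6% of all genes were higher and 21.5% lower, and 0 were called. Dlx6os1, a long noncoding RNA of the Dlx locus, was at 520 and 535 CPM in the mutant samples and 848 and 728 CPM in the control samples (log2 fold change -0.58 ± 0.14 SE, edgeR adjusted p = 0.264). Its reads and those of the overlapping Dlx6, at 25.8 and 20.0 CPM against 37.6 and 30.4 CPM, may not be fully separable. Kcnip1, a potassium channel interacting protein gene, was at 480 and 539 CPM against 592 and 617 CPM, while Kcnmb2, a potassium channel subunit gene, was higher at 882 and 930 CPM against 720 and 697 CPM. Neither passed (adjusted p = 0.526 and 0.376).

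The GABA machinery list had 0 of 6 members called, where edgeR called 0.00713% of all genes lower and 0% higher. Gad1 was at 188 and 190 CPM in the mutant samples and 267 and 224 CPM in the control samples (log2 fold change -0.38 ± 0.15 SE, edgeR adjusted p = 0.415), and Gad2 at 244 and 265 CPM against 317 and 296 CPM (-0.27 ± 0.14 SE, adjusted p = 0.507). Slc32a1 overlapped, at 131 and 109 CPM against 131 and 160 CPM. Of the 5 MGE markers, 3 were higher without overlap, among them Lhx6 at 36.8 and 35.4 CPM against 23.4 and 23.1 CPM. Of the 5 CGE markers, 3 were lower without overlap, where 21.6% of all genes were higher and 21.5% lower. The lineage shares given above moved in the same samples, and their part in these levels was not tested.

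Genes of receptors and signalling gave 0 calls in each list. Of 18 glutamate receptor genes, 9 were higher and 0 lower without overlap, with a median of 0.15 on the log2 scale. Over all genes tested, 21.6% were higher and 21.5% lower without overlap. Grik3, a kainate receptor subunit, was at 147 and 149 CPM in the mutant samples and 88.5 and 103 CPM in the control samples (0.62 ± 0.15 SE, adjusted p = 0.282). Grik1, another kainate receptor subunit, was at 1414 and 1207 CPM against 980 and 866 CPM (adjusted p = 0.309). Of 14 GABA receptor genes, 4 were higher and 2 lower. Gabra3, an alpha subunit, was at 111 and 79.6 CPM against 62.7 and 60.0 CPM (edgeR adjusted p = 0.328). Of 8 inhibitory synapse genes, 4 were higher and 0 lower, and Gphn, for the scaffold gephyrin, overlapped. Of 17 excitability genes, 5 were higher and 3 lower, and of 16 adhesion genes, 4 were higher and 1 lower. Erbb4, the neuregulin receptor of interneurons, was at 5111 and 4176 CPM against 4041 and 3351 CPM (0.33 ± 0.15 SE, adjusted p = 0.449), while Trps1 and Cntnap5a overlapped. Of 25 Wnt pathway genes tested, 8 were higher and 6 lower; Axin2, a feedback target of Wnt signalling, was at 13.99 and 9.81 CPM against 7.46 and 7.13 CPM (adjusted p = 0.464).

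Among genes that were higher in mutant cluster 5 nuclei, Hs3st4, a heparan sulfate sulfotransferase gene, was at 76.9 and 102 CPM in the mutant samples and 38.0 and 50.5 CPM in the control samples (log2 fold change 1.01 ± 0.20 SE, edgeR adjusted p = 0.202). Within CGE-like nuclei it passed, at 69.4 and 52.3 CPM against 20.0 and 19.4 CPM (1.58 ± 0.25 SE, adjusted p = 0.0248). In MGE-like nuclei it overlapped, at 24.4 and 37.6 CPM against 20.6 and 32.3 CPM (0.24 on the log2 scale, adjusted p = 0.801). Subcluster 8 held 138 of 253 and 545 of 850 Hs3st4 UMIs in the mutant samples, and 58 of 112 and 136 of 241 in the control samples. In that subcluster Hs3st4 was at 472 and 418 CPM against 211 and 210 CPM (edgeR adjusted p = 0.0779). Hs3st4 was higher in both mutant samples in 11 of 18 clusters and lower in 2. Over the pooled samples it was at 327 CPM in CA1 nuclei and 74.6 CPM in cluster 5. The part of CA1 RNA in these values was not tested. Igfbpl1, which was lower over the whole cluster at 0.91 and 1.32 CPM against 11.5 and 10.3 CPM, was carried by subcluster 8, where it was at 0 and 3.84 CPM against 105 and 67.9 CPM. Subcluster 8, a grouping made after the data were seen, had 29 and 87 nuclei in the mutant samples and 27 and 36 in the control samples. Within it, edgeR called Igfbpl1, Cpa6, Rasal2, Ano1 and Ano2 lower and Gm32647 higher. Ano1 and Ano2 are calcium-activated chloride channel family genes. Ano1 was at 17.1 and 6.14 CPM against 116 and 77.1 CPM, and Ano2 at 3.42 and 3.84 CPM against 47.3 and 50.9 CPM. Zic1, at 0 and 18.4 CPM against 94.5 and 130 CPM, did not pass (edgeR adjusted p = 0.0559). Whether the mix of nuclei in subcluster 8 differed between genotypes was not tested.

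Apart from the striatal list, the marker lists of other cells were each below the 6 GABA machinery genes in cluster 5 of all 4 samples. Those 6 genes held 0.107% and 0.105% of UMIs in the mutant samples and 0.122% and 0.114% in the control samples. The 9 striatal markers held 0.0838% and 0.113% in the mutant samples and 0.0882% and 0.104% in the control samples. In mutant replicate 2 they were above the GABA machinery genes. Pde10a, 1 of the 9, was at 771 and 1060 CPM in the mutant samples and 804 and 931 CPM in the control samples. Cajal-Retzius cell markers held 0.0334% to 0.0422%. Excitatory markers held 0.0147% to 0.021%, oligodendrocyte markers 0.0107% to 0.0179% and microglia markers 0.00813% to 0.0109%. The lists differ in their number of genes. Choroid plexus markers held 0.00541% in mutant replicate 2 and 0.00036% to 0.00237% elsewhere. The 6 astrocyte markers summed to 0.0106% and 0.0204% of UMIs in the mutant samples and 0.014% and 0.0159% in the control samples, and the 4 granule cell markers to 0.00042% and 0.000506% against 0.00105% and 0.0012%. Ribosomal protein transcripts made up 0.214% and 0.232% of UMIs in the mutant samples and 0.252% and 0.262% in the control samples, with 41 of 90 lower without overlap and 7 higher, where 21.5% of all genes were lower and 21.6% higher. Their part in the differences above was not tested.

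Bulk RNAseq offered the GABAergic transcripts in whole tissue, where fewer cells of a type and less RNA per cell cannot be told apart. Gad1 was at 335 and 374 CPM in the mutant samples and 313 and 305 CPM in the control samples, Gad2 at 221 and 229 against 191 and 183 CPM, and Slc32a1 at 80.0 and 81.8 against 69.4 and 62.9 CPM. None passed (edgeR adjusted p = 0.223, 0.0972 and 0.108). Of the 10 genes shared by interneurons, 7 were higher without overlap and 0 lower, where 25.8% of all genes were higher and 25.4% lower. Over all genes, edgeR called 82 of 20687, or 0.396%. On simulated counts of this design, the bulk test made more false calls than its FDR threshold implies. The lists of GABA machinery, shared interneuron, lineage and subtype genes held Prox1 and Pdyn among them, both lower and both also known from granule cells, whose 4 markers had a median log2 fold change of -2.65.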

How the data were processed

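Single nucleus reads were processed by the authors in Cell Ranger 3.1.0 with an mm10 index that includes introns. The deposited matrices hold a UMI count per gene and nucleus, with a size factor, the ratio of a nucleus's total to the mean over nuclei, and a cluster name set after batch correction and clustering in Monocle 3. For bulk RNAseq, the authors deposited an expected count per gene from RSEM 1.3.0 with Bowtie2 2.2.9. Expected counts were rounded here. UMIs were summed per mouse and cluster, since the mouse is the replicate, and tested with edgeR 4.0.16 in R 4.3.3 (filterByExpr, TMM, quasi-likelihood, Benjamini-Hochberg over all genes tested), called at FC above 2 and FDR below 0.05. With 2 samples per genotype, an exact permutation test cannot go below p = 0.333. DESeq2 1.42.0 and limma 3.58.1 were alternatives. A standard error is the fitted log2 difference divided by the square root of F. Subclusters came from Leiden clustering (leidenalg) at resolution 0.5. Its input was Pearson residuals, each count's scaled deviation from the profile of its own sample. Possible doublets were nuclei in which at least 2 of 4 glial lists each had UMIs of at least 2 genes, or with UMIs of Slc17a7 and of Neurod2 or Neurod6. These nuclei (21 and 116 mutant, 25 and 60 control), and those marked by Scrublet, were kept in the reported test and left out in alternatives. Scrublet, run in scanpy 1.11.5, marked 1 nucleus in mutant replicate 1 and is taken not to have worked there. Gene-wise tests were checked on simulated counts; the test of shares was not. In the bulk simulation, false calls exceeded the nominal rate. Named genes were the lists, genes the study names for neurons, the 10 genes per direction with the largest change past the thresholds (filled up by lowest p with FC above 2) and the 15 genes with the highest ratio to any other cluster. The members and lists were chosen with earlier results of these data known. Some genes that these rules select are not reported here. Intervals cover counting error only.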

Additional observations from a re-analysis of the deposited data

Results flagged for a closer look

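Genotype effects that differed between cluster 5 and another GABAergic cluster in the edgeR interaction term are given as log2 differences, cluster 5 minus the other cluster. Against cluster 12, Slc1a2 differed by 1.48, Slc4a4 by 1.80, Gpc5 by 1.22 and Wdr17 by 1.24. All but Wdr17 are known as astrocyte genes, and in the control samples of cluster 12 Slc1a2 was at 96.3 and 226 CPM. In the other direction, AC121788.1 differed by -2.77, Htr2c by -2.02, Shisa9 by -1.04, Sorcs1 by -1.21 and Gm28928 by -1.42. Htr2c, a serotonin receptor gene, was at 91.5 and 123 CPM in mutant and 113 and 113 CPM in control cluster 5, and at 66.7 and 91.9 CPM in mutant and 14.01 and 24.0 CPM in control cluster 12. Wls differed by 1.46.

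Of these genes, Htr2c alone passed without each sample in turn (-2.62 to -1.83). Without control replicate 2, Slc1a2 was 0.73, Slc4a4 1.10, Gpc5 0.40, Wdr17 0.90, Shisa9 -0.84 and Sorcs1 -1.14, and none of them passed. Without mutant replicate 2, AC121788.1 was -1.28, Shisa9 -0.49, Sorcs1 -1.27, Gm28928 -0.015 and Wls 0.79, and none of them passed. Gpc5 fell below the fold threshold without mutant replicate 1, at 0.96, and Gm28928 did not pass without control replicate 1, at -1.01. At their highest, Slc4a4 reached 3.08 and Gpc5 2.55 without mutant replicate 2, and Gm28928 reached -2.51 without control replicate 2.

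Against cluster 18, Nsun2 differed by 2.03, Pard3b by 2.03, Chrm3 by -1.11 and Kcnn3 by -3.27. Nsun2 rested on 1 library, at 199 CPM in control replicate 2 of cluster 18 and 33.2 to 43.7 CPM in its other samples. Without 1 sample, Nsun2 ranged from 0.63 to 2.47, Pard3b from 1.14 to 2.48, Chrm3 from -2.05 to -0.63 and Kcnn3 from -10.5 to -2.62. Each of these lost its call without at least 2 of the 4 samples. Nsun2 and Pard3b were lowest without control replicate 2, and Chrm3 and Kcnn3 were nearest to 0 without control replicate 1. In limma over the 4 mice, Shisa9 (adjusted p = 0.0737), Gm28928 (0.329), Wls (0.149) and the 4 genes against cluster 18 (0.919 each) did not pass, and the other genes given here did.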

How the results depend on the processing

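The count of genes called in cluster 5 depended on the fit, while the named directions mostly did not. Against 0 higher and 1 lower, DESeq2 gave 1 and 17, no filter on low counts 42 and 57, and the replicate block, which pairs samples by number, 48 and 58. With the block, all 20 genes of lowest p passed, among them Wls (-1.44, adjusted p = 0.000246) and Cck (-1.31, 0.000246). Leaving out 1 sample gave 1 to 105 higher and 39 to 99 lower. The edgeR prior degrees of freedom, which say how far the spread is pooled over genes, were 7.71 in the reported fit, 14.5 with the block, infinite without a filter and without either mutant replicate, 22 without control replicate 1 and 43.7 without control replicate 2, so counts under these settings rest on more pooling. Fewer genes were lower, 0, without possible doublets, with nuclei thinned to 1500 UMIs and without subcluster 8, and CGE-like nuclei gave 1 higher and 3 lower. Ubb was lower under all 16 alternatives. Sst, at -0.22, ranged from -0.50 to 9.4e-05 without 1 sample, the latter without mutant replicate 2, and was 0.76 in CGE-like nuclei, Vip was 0.76 in MGE-like nuclei, and bulk Ubb ranged from -0.026, without control replicate 2, to 0.46. The cause was not tested.

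Between clusters 5 and 12, 31 genes became 17 to 30 without 1 sample and 17 in limma. Between clusters 5 and 18, 4 became 0 to 5 without 1 sample, 2 without a filter, 2 with RLE scaling and 0 in limma. The bulk calls in the GABAergic lists (GABA machinery, shared interneuron, MGE, Pvalb, Sst, CGE, Vip, Cck and Lamp5 genes), 0 higher and 2 lower, became 0 to 2 and 0 to 3 without 1 sample, and 1 lower with the replicate block. The share of nuclei did not pass under any of its 10 alternatives (0.02 to 1.13 on the log2 scale). Same-numbered samples deviated together over 7299 genes (correlation 0.43), but nothing in the labels pairs them.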
